A study of Mus musculus with 11 samples.

Results

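The genes described here are 10 markers and regulators of pluripotency: *Pou5f1*, *Nanog*, *Sox2*, *Sall4*, *Esrrb*, *Zfp42*, *Tfcp2l1*, *Nr5a2*, *Tbx3* and *Tdgf1*. They were taken by symbol from the 54146 genes quantified in every embryo, and each symbol matched 1 Ensembl gene. The data were RNA-seq libraries of 11 single 8-cell stage C57BL/6 mouse embryos, taken from the oviduct at embryonic day 2.5 after matings of *Prdm10* heterozygotes. The 6 control embryos were labelled *Prdm10* WT/HET, so wild-type and heterozygous embryos stand in 1 group, and the 5 mutant embryos were labelled *Prdm10* KO and carried a deletion of exon 5 on both alleles. Embryos had been assigned to these groups by qRT-PCR for exon 5 in their own cDNA, and the labels name no treatment. Batch 1 held 3 controls and 2 mutants amplified with 16 PCR cycles, and batch 2 held 3 controls and 3 mutants amplified with 13 cycles. The summed expected counts ranged from 3534735 to 7195942 in controls and from 5402858 to 8265840 in mutants, control replicate 2 being the shallowest. The targeted gene, measured as TPM (a level corrected for transcript length and library total), was 4.88 to 8.16 in the 5 mutants and 11.1 to 24.8 in the 6 controls, with no overlap. In normalised counts only 2 of the 5 mutants lay below every control, and the effective length by which TPM divides was 4348 to 5051 bases in mutants and 2565 to 3357 in controls. Its test on counts gave -0.66 ± 0.26 (log2, SE) and missed the threshold, at an adjusted p of 0.215 in DESeq2.

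The transcription factors OCT4 (encoded by *Pou5f1*), SOX2 and NANOG bind many of the same regulatory elements in pluripotent cells, where OCT4 and SOX2 sit side by side on composite DNA elements. SALL4 is a zinc finger partner of this core, and ESRRB, TFCP2L1, TBX3, NR5A2 and ZFP42 (REX1) belong to the naive state, which is kept by LIF and KLF factors and is lost as cells approach implantation. In the preimplantation embryo this network is switched on during cleavage and later becomes restricted to the inner cell mass, while outer cells become trophectoderm. *Tdgf1* went against the heading of transcription factors, since it encodes CRIPTO, a membrane-anchored co-receptor for the ligand NODAL. The set thus held 9 transcription factor genes and 1 co-receptor gene. Each library averaged all cells of an embryo, so fewer expressing cells and less RNA per cell cannot be told apart.

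The sequence just upstream of the start was available from RefSeq (GRCm38.p6) for 8 of the 10 genes. Shown as examples are 3 of these promoters that hold elements through which members of the set are known to bind DNA. Capitals mark matches on either strand to the octamer ATGCAAAT or its first 7 letters ATGCAAA, which POU factors such as OCT4 recognise, to CATTGT, the core recognised by SOX factors, and to AGGTCA, the core recognised by nuclear receptors such as ESRRB and NR5A2.
Nanog, chr6:122707239-122707488, plus strand: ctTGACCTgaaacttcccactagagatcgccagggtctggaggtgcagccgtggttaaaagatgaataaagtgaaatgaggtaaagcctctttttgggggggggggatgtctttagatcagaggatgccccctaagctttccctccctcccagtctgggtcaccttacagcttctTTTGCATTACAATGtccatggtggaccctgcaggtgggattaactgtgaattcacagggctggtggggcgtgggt
Zfp42, chr8:43307010-43307259, minus strand: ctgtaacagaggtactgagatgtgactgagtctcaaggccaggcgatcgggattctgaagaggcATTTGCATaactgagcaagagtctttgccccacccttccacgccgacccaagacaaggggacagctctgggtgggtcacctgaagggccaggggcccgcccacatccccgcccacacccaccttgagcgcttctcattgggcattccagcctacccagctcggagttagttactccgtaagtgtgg
Pou5f1, chr17:35505782-35506017, plus strand: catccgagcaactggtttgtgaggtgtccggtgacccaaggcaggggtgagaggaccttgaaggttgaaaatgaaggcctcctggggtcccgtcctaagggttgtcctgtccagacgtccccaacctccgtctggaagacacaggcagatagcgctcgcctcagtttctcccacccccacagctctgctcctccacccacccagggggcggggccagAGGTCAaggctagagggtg
In the *Nanog* promoter the 7 octamer letters and the SOX core stood 1 base apart, from -75 to -62 relative to the RefSeq start, from which all positions are counted, and the base between them, also in capitals, belongs to neither match. That arrangement, with at most 3 bases between both elements, was found in 6 of 32851 upstream windows of 250 bases (0.0183%), and 2 of the 6 were the overlapping windows of *Nanog*. The *Zfp42* window carried the whole octamer from -186 to -179, as did 1.60% of all windows. ATGCAAA alone was present in 4.12% of windows, among them that of *Sox2* from -99 to -93, CATTGT in 10.7% and AGGTCA in 14.0%. AGGTCA was also matched in the *Sox2* window from -244 to -239 and in a *Nr5a2* window from -64 to -59, which are not shown. The AGGTCA match of *Pou5f1* lay from -33 to -28, and since its RefSeq start lies inside the gene as annotated, the printed stretch stops before that start. The longer nuclear receptor element TCAAGGTCA, found in 0.387% of windows, and the T-box element AGGTGTGA, found in 1.12%, matched none of the 12 windows of the 8 genes.

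PRDM10 itself binds a GC-rich element, and the gel-shift probe designed in the study is shown with capitals for the 11-base stretch in which its mutant version changed 8 bases.
Probe: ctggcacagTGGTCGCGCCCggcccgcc
The 11 letters in capitals, searched on both strands, were absent from all 12 windows and present in 4 of the 32851 (0.0122%). Such matches describe letters only, and a missing match says nothing about binding outside these windows.

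The other 9 members had counts in every embryo, *Sox2* in 6 of 11, and their levels spanned a wide range. The plot of TPM by embryo shows each gene in its 4 combinations of group and batch. On the log2(TPM + 1) scale, the level averaged 7.13 ± 1.15 (SD, n = 11) for *Pou5f1*, 6.67 ± 0.27 for *Sall4*, 6.43 ± 0.72 for *Tdgf1*, 5.79 ± 0.54 for *Nr5a2* and 5.44 ± 0.91 for *Tbx3*. It was 5.22 ± 0.38 for *Zfp42*, 4.65 ± 0.66 for *Tfcp2l1*, 4.30 ± 1.03 for *Nanog*, 4.04 ± 0.36 for *Esrrb* and 0.39 ± 0.52 for *Sox2*. Only the last step of this order exceeded the spread, with *Esrrb* above *Sox2* in 11 of 11 embryos by 3.65 ± 0.78 (SD of the difference). At every other step the mean difference between neighbours was smaller than its SD, and the higher gene led in 5 to 8 of 11 embryos. *Pou5f1* led in batch 1 and *Sall4* in batch 2. With controls alone, *Zfp42* moved above *Tbx3* and *Nanog* above *Tfcp2l1*, whereas with mutants alone *Nanog* fell below *Esrrb*.

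**Figure D1:**
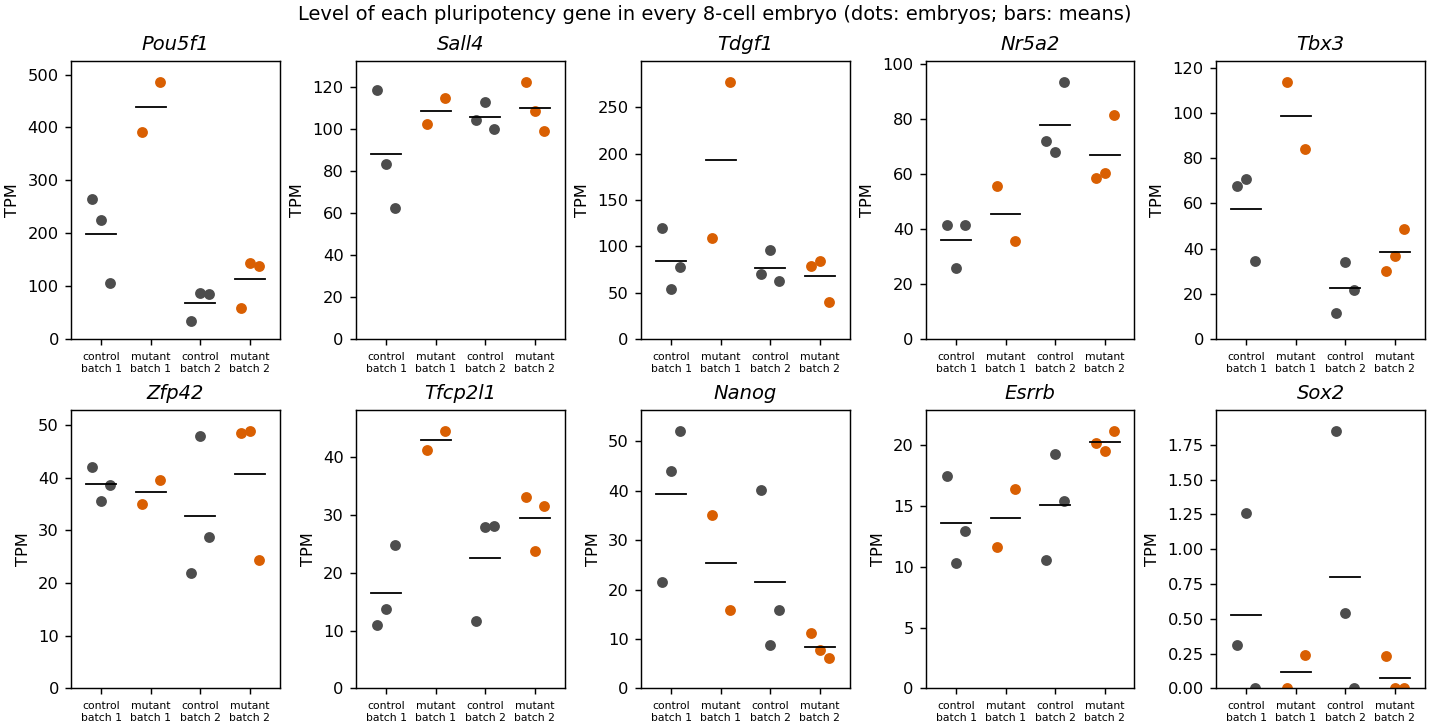
TPM of the 10 genes (vertical axes, each from 0) in every embryo, with dots for embryos (grey control, orange mutant) and bars for the mean of each batch and group. *Pou5f1* reached 391 and 486 TPM in the mutants of batch 1, whereas *Sox2* never exceeded 1.85 TPM in any embryo.

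*Sox2* (ENSMUSG00000074637.7, chromosome 3 from 34650405 to 34652461) stood apart from its partners. It had 0 counts in 5 of 11 embryos and 41 counts over all embryos together, 22 of which came from control replicate 1. At the depth of the 5 libraries with no count, 3 counts would have corresponded to 0.221 to 0.366 TPM, a limit that covers counting error only. Control levels were 0, 0.31 and 1.26 TPM in batch 1 and 0, 0.54 and 1.85 TPM in batch 2, against 0 and 0.24 TPM, and 0, 0 and 0.23 TPM, in the corresponding mutants. No difference between the groups was detectable at this depth, and with a mean normalised count (baseMean) of 3.73 the gene was below the minimum of 10 required for a call. *Sox2ot*, a transcript that overlaps *Sox2* on the same strand, had at most 3 counts in any library.

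Whether loss of PRDM10 altered the network at the 8-cell stage was asked by comparing mutants with controls, with batch as a term. *Tbx3*, a T-box factor of the naive state, was the 1 member that passed the threshold of a DESeq2 adjusted p under 0.05, and it was higher in mutants. Across all genes, 59 of 10448 tested (0.565%) were called higher and 151 (1.45%) were called in either direction. Of the 9 members tested, 8 had a log2 fold change above 0, against 49.8% of all genes, and the members' median was 0.30, against -0.0012 for all genes. *Nanog* was the exception. The members were chosen with earlier results known and were measured in the same embryos, so these shares do not test the set. The edgeR quasi-likelihood test called 0 members and 32 of 11798 genes (0.271%). On simulated data the share of false calls exceeded the nominal level in DESeq2 but not in edgeR. This limits every call made by DESeq2 alone, that of *Tbx3* included. An unadjusted DESeq2 p under 0.05 was reached by 4 of the 9 members and by 1248 of all 10448 genes (11.9%). In no member were all mutants above, or all below, the controls of their batch in both batches, a pattern that 286 of the 10448 genes (2.74%) showed in normalised counts, 139 of them (1.33%) upwards.

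*Tbx3* (ENSMUSG00000018604.18, chromosome 5 from 119670669 to 119684724) was expressed at 34.5, 67.8 and 71.0 TPM in batch 1 controls and at 83.9 and 114 TPM in the mutants of that batch. In batch 2, it was at 11.8, 21.6 and 34.1 TPM in controls and at 30.2, 36.9 and 48.7 TPM in mutants. Mutants therefore exceeded every control of their own batch in 4 of 5 cases, mutant replicate 1 being the exception, and the batches were further apart than the groups. Mutants were higher by 0.87 ± 0.25 on the log2 scale (SE; 1.82-fold), at an adjusted p of 0.0425 in DESeq2 and 0.228 in edgeR. The call held in 3 of the 11 fits that left out 1 embryo, where the adjusted p ranged from 0.00134 (without control replicate 2) to 0.254 (without mutant replicate 4). Fits in each batch alone gave log2 fold changes of 0.93 in batch 1 and 0.82 in batch 2, neither passing the threshold. An antisense gene, *Tbx3os1*, overlaps *Tbx3*, and the libraries do not record strand, but its own count was at most 12.

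*Tfcp2l1* encodes a CP2 family factor that acts downstream of LIF and STAT3. The gene (ENSMUSG00000026380.10, chromosome 1 from 118627945 to 118685168) was at 10.98, 13.8 and 24.7 TPM in batch 1 controls and at 41.3 and 44.5 TPM in batch 1 mutants. Batch 2 controls had 11.7, 27.8 and 28.0 TPM, and batch 2 mutants 23.8, 31.5 and 33.2 TPM. On TPM the groups separated in batch 1 and overlapped in batch 2 through mutant replicate 2. In the normalised counts used for the test, mutant replicate 2 was instead the highest embryo (832), and mutant replicates 1 (718) and 3 (742) lay under control replicate 2 (769.7). The estimate of 0.86 ± 0.27 (log2, SE) missed the threshold, at an adjusted p of 0.0701 in DESeq2 and 0.263 in edgeR. It passed without control replicate 2 (adjusted p 0.00109) or without control replicate 6 (adjusted p 0.0438).

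*Pou5f1* (ENSMUSG00000024406.16, chromosome 17 from 35506018 to 35510772) had the highest mean level per length, although it exceeded *Sall4* in only 7 of 11 embryos. Its level was 106, 225 and 265 TPM in batch 1 controls and 391 and 486 TPM in batch 1 mutants, with no overlap. In batch 2 it was 34.2, 86.3 and 87.3 TPM in controls and 59.8, 138 and 144 TPM in mutants, where mutant replicate 1 fell among the controls. The estimate of 0.90 ± 0.31 (log2, SE) also missed it, at an adjusted p of 0.123 in DESeq2 and 0.324 in edgeR. It passed in batch 1 alone (1.19, adjusted p 0.0430) and without mutant replicate 1 (1.06, adjusted p 0.0391).

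*Nanog* (ENSMUSG00000012396.12, chromosome 6 from 122707489 to 122714633) had the only negative fold change among the tested members. Controls had 21.5, 44.1 and 52.1 TPM in batch 1 and 8.86, 15.8 and 40.2 TPM in batch 2. Mutants had 15.9 and 35.0 TPM in batch 1 and 6.10, 7.72 and 11.2 TPM in batch 2. Of the 5 mutants, 3 lay below every control of their batch, and mutant replicates 1 and 4 lay among the controls. The estimate of -1.05 ± 0.38 (log2, SE) missed the threshold, at an adjusted p of 0.167 in DESeq2 and 0.405 in edgeR. None of its alternatives passed. The estimate was -0.63 without control replicate 1, the batch 2 control with the highest level, and the adjusted p over 11 fits with 1 embryo left out ranged from 0.0533 to 0.669.

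The remaining members had smaller differences, none of which passed the threshold. The orphan nuclear receptor gene *Esrrb* ranged from 10.3 to 19.3 TPM in controls and from 11.7 to 21.2 TPM in mutants (log2 fold change 0.30 ± 0.21, SE; DESeq2 adjusted p 0.627), and on TPM all 3 mutants of batch 2 lay above the controls of that batch. *Zfp42*, a zinc finger gene widely used as a naive marker, ranged from 21.9 to 47.8 TPM in controls and from 24.4 to 48.9 TPM in mutants (0.16 ± 0.25; adjusted p 0.896). *Nr5a2*, which encodes LRH-1, a nuclear receptor of the cleavage-stage embryo, ranged from 25.9 to 93.6 TPM in controls and from 35.6 to 81.6 TPM in mutants (0.13 ± 0.20; adjusted p 0.890). *Sall4* was the most even, from 62.5 to 119 TPM in controls and from 99.1 to 122 TPM in mutants, and its 95% interval of -0.18 to 0.39 was the narrowest among the tested members (0.10 ± 0.14; adjusted p 0.868). The intervals of *Esrrb* (-0.12 to 0.72), *Zfp42* (-0.33 to 0.65) and *Nr5a2* (-0.26 to 0.52) all included 0.

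*Tdgf1* (ENSMUSG00000032494.12, chromosome 9 from 110939603 to 110946158) depended on 1 embryo. Controls had 54.0, 77.8 and 120 TPM in batch 1 and 62.5, 70.0 and 96.3 TPM in batch 2, while mutants had 110 and 278 TPM in batch 1 and 39.9, 79.2 and 84.0 TPM in batch 2. The highest value, 278 TPM in mutant replicate 5, was far above all other embryos. Mutant replicate 3 lay below every control, and the other 3 mutants lay within the range of the controls. The log2 fold change was 0.47 ± 0.32 (SE; DESeq2 adjusted p 0.608), and it was 0.02 without mutant replicate 5. Its processed copy *Tdgf1-ps1* was assigned 1.23 to 26.5 expected counts per library, and how many reads matched both was not counted.

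**Figure D2:**
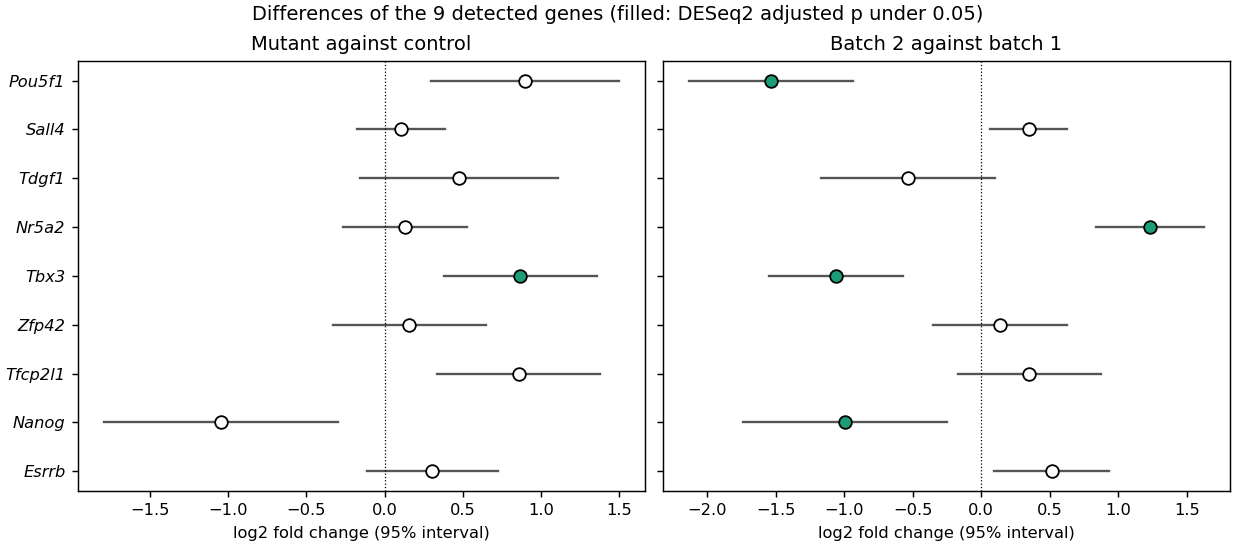
Log2 fold changes of the 9 tested genes between mutants and controls (left) and between batches (right), with 95% intervals as lines and filled circles where the DESeq2 adjusted p was under 0.05. *Tbx3* is the only filled circle on the left (0.87), and 4 genes are filled on the right, from -1.53 for *Pou5f1* to 1.23 for *Nr5a2*.

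The batch moved more members than the genotype did. Of the 9 tested, 4 were called between batches, as were 27.9% of all genes. *Pou5f1* was lower in batch 2, by a log2 fold change of -1.53 ± 0.31 (SE; DESeq2 adjusted p 1.38e-05). *Tbx3* was lower by -1.06 ± 0.25 (adjusted p 0.000302) and *Nanog* by -0.99 ± 0.38 (adjusted p 0.0412, but 0.0741 in edgeR). *Nr5a2* went the other way and was higher in batch 2, at 58.8 to 93.6 TPM against 25.9 to 55.6 TPM, with no overlap (1.23 ± 0.20; adjusted p 6.28e-08). *Esrrb* (0.51, adjusted p 0.0657) and *Sall4* (0.35, adjusted p 0.0637) did not pass with all embryos, but each passed in 2 of the 11 fits that left out 1 embryo. PCR cycles and collection differed together between the batches and cannot be told apart. Markers of cells from outside the embryo differed as well, since the summed TPM of the 3 oviduct epithelium genes was 0 to 0.81 in batch 1 and 1.59 to 31.9 in batch 2, and that of *Ptprc* and *Lyz2*, the leukocyte genes, was 0 to 0.59 and 9.77 to 123. The cumulus and granulosa sum went the other way, from 42.9 to 81.1 TPM in batch 1 to 19.4 to 33.6 TPM in batch 2. Nearly all of it came from *Amhr2*, and 6 of the 8 genes of that list stayed under 1 TPM in every embryo. This sum therefore describes *Amhr2* and not the list as a whole. The part of all these markers in the batch differences was not tested.

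A batch by group interaction asked whether the genotype difference of a member itself differed between batches. It called 0 of 9 members in DESeq2, 0 of 10 in edgeR, where *Sox2* was also tested, and 4 of 10472 genes (0.0382%) in DESeq2. *Tdgf1* was the only member with an unadjusted p under 0.05, as were 450 genes in all, with an interaction of -1.39 ± 0.57 (SE; unadjusted p 0.0140, adjusted p 1.00). The adjusted p was 1.00 for the other members too.

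Members differed in how much they varied between embryos around the fit with batch and group as terms, so that a group difference unequal between batches, as estimated for *Tdgf1*, adds to the spread. The measure was the DESeq2 gene-wise dispersion divided by the trend fitted for genes of that mean count, whose median over 10489 genes was 0.786. *Tdgf1* (3.69), *Pou5f1* (3.27) and *Nanog* (3.02) had ratios above those of 97.0%, 96.1% and 95.3% of genes. *Tbx3* (1.84) and *Tfcp2l1* (1.83) were intermediate. *Zfp42* (1.04), *Nr5a2* (0.900) and *Esrrb* (0.601) were nearer to the median, and the ratio of *Sall4* (0.272) was above that of only 10.7% of genes.

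**Figure D3:**
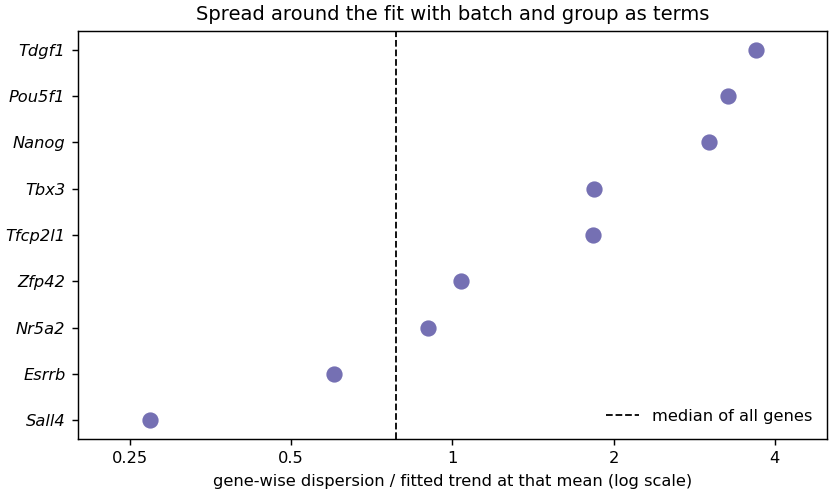
Gene-wise dispersion of the 9 tested genes divided by the fitted trend (horizontal log axis), with the median of all genes as a dashed line. *Sall4* lies at 0.272, while *Nanog*, *Pou5f1* and *Tdgf1* lie above 3.

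To see whether variable members moved together, levels on the log2(TPM + 1) scale were centred on the mean of each batch and group, and the 36 pairs were compared over 11 embryos with an exact permutation test within batch and group (432 arrangements, two-sided). No pair passed after Benjamini-Hochberg adjustment, and the design leaves little room for a pass, since a single pair at the smallest possible p of 0.00231 adjusts to 0.0833. The 3 pairs described next were chosen after their values were seen. Centring on so few embryos ties their values together, and the 2 mutants of batch 1 become mirror images. The n given with an r therefore counts embryos and not independent values. The pair *Pou5f1* and *Nanog* had a Pearson's r of -0.81 (exact permutation p 0.00694, adjusted p 0.125) and Spearman's rho of -0.83 (p 0.00463, adjusted p 0.125). The r was -0.71 in batch 1 (n = 5), -0.86 in batch 2 (n = 6), and -0.69 when the 2 embryos farthest from the median of *Pou5f1* were left out. *Nanog* and *Esrrb* had r = -0.91 (exact permutation p 0.0278, adjusted p 0.313) and rho = -0.89 (p 0.0255, adjusted p 0.306), with -0.87 and -0.95 within the batches and -0.81 without the 2 embryos farthest from the median of *Nanog*. *Zfp42* and *Tdgf1* had r = 0.68 (exact permutation p 0.00694, adjusted p 0.125) and rho = 0.76 (p 0.00694, adjusted p 0.125). Their r was 0.97 in batch 1, 0.90 in batch 2 and 0.57 without the 2 embryos farthest from the median of *Zfp42*. All TPM values of a library share its total, so levels within a library are not independent.

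**Figure D4:**
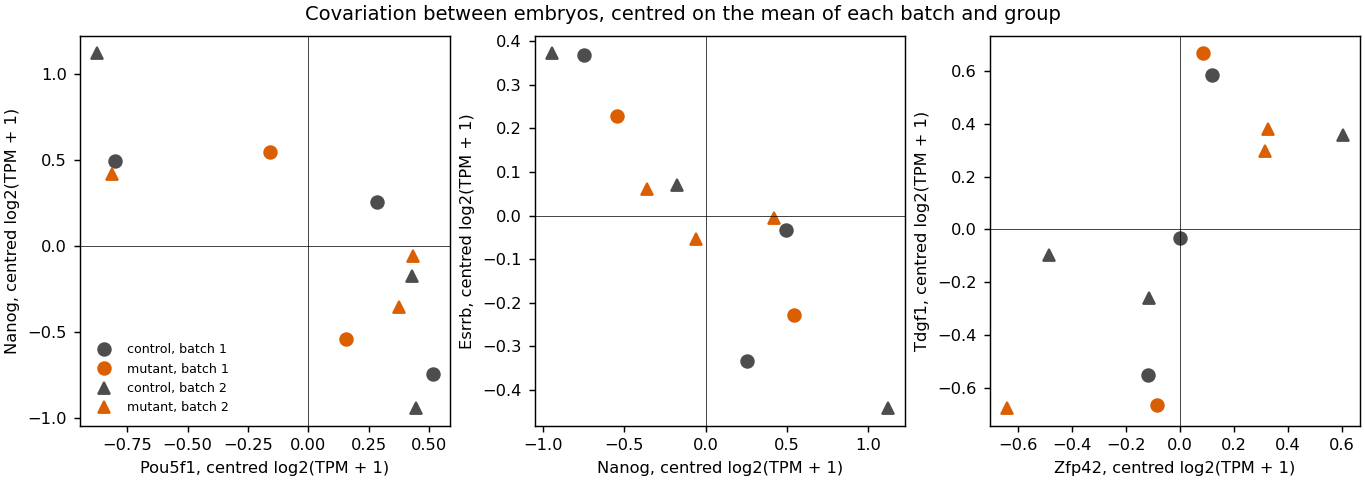
Centred log2(TPM + 1) of *Nanog* (vertical) by *Pou5f1* (horizontal, left), of *Esrrb* by *Nanog* (middle) and of *Tdgf1* by *Zfp42* (right) in the 11 embryos, with circles for batch 1, triangles for batch 2, grey for control and orange for mutant. The left and middle panels fall from left to right (r = -0.81 and -0.91) and the right panel rises (r = 0.68); no pair passed the adjusted threshold.

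The 3 genes whose levels varied most like the mean of the 9 tested members, after centring within batch, were *Hikeshi* (Spearman's rho 0.98), *Cmtm7* (0.94) and *Tmem120a* (0.93), chosen among 5528 genes with a baseMean above 100. Unlike the centring used for the pairs, this one kept the difference between mutants and controls, so the values include it. They describe 11 embryos and carry no test.

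Of the genes around the network, 2 of 4 KLF factors and 1 of 22 other tested network genes were called, against 1.45% of all genes. These lists were chosen with earlier results of these data known, so the shares do not test for an excess of calls. Among the KLF factors, *Klf5* was higher in mutants (97.1 ± 17.0 TPM in 6 controls and 172 ± 22.7 in 5 mutants, SD; log2 fold change 0.84 ± 0.14, SE; adjusted p 1.07e-06 in DESeq2 and 0.00853 in edgeR). *Klf17* was lower (155 ± 74.3 and 70.5 ± 38.4 TPM; -1.10 ± 0.29; adjusted p 0.0210, but 0.207 in edgeR). Among the other network genes, of which 22 of 30 were tested, *Thap11*, which encodes RONIN, a zinc finger factor needed by embryonic stem cells, was lower (35.1 ± 17.5 and 12.4 ± 3.06 TPM; -1.32 ± 0.30; adjusted p 0.00286, but 0.137 in edgeR). The others did not pass, and their list median of -0.03 was close to that of all genes. The most abundant were *Dppa3* (5132 and 4973 TPM in controls and mutants), *Fbxo15* (4141 and 4411 TPM), *Dppa5a* (1706 and 2337 TPM) and *Dppa2* (880.2 and 867 TPM).

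The signalling inputs of the network held 9 tested genes, and with 1.45% of all genes called, the absence of a call among so few says little about them. Of 6 LIF and STAT3 genes, 4 were tested and 0 called (median 0.43). The feedback inhibitor *Socs3* was the highest (57.0 and 60.0 TPM), *Stat3* was at 3.14 and 3.58 TPM, *Jak1* at 7.82 and 4.95 TPM and *Lif* at 0.478 and 0.836 TPM. The receptor genes *Lifr* and *Il6st* were below 1 TPM in every embryo. Of 11 NODAL pathway genes, 5 were tested and 0 called (median -0.11), the highest being *Smad2* (25.8 and 22.4 TPM), *Smad4* (9.55 and 7.29 TPM), *Acvr2a* (5.32 and 4.15 TPM) and *Acvr2b* (2.13 and 3.09 TPM). *Nodal* itself had 0 counts in every library, while its co-receptor gene *Tdgf1* was at 39.9 to 278 TPM.

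Markers of later lineages were examined beside these values. Of 8 trophectoderm genes, 5 were tested and *Krt18*, a keratin of outer cells, was called higher in mutants, as were 0.565% of all genes (2.61 ± 1.87 and 9.56 ± 3.82 TPM; 1.85 ± 0.47; adjusted p 0.0148, but 0.192 in edgeR). The list summed to 86.0 to 272 TPM in controls and 131 to 323 TPM in mutants, mostly from *Tead4* and *Tfap2c*, whereas *Cdx2* did not exceed 1.3 TPM and *Elf5* 0.140 TPM. The 5 primitive endoderm genes (3 tested, 0 called) summed to 33.6 to 156 TPM in controls and 67.2 to 120 TPM in mutants, mostly from *Gata6* and *Gata4*. Formative and primed genes (1 of 7 tested, 0 called) stayed between 2.46 and 19.3 TPM in sum, mostly from *Dnmt3b*.

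No marker of other cells or stages was called, which with so few tested and 1.45% of all genes called does not set them apart. The 8 oocyte genes (7 tested) summed to 33.9 to 127 TPM in controls and 46.8 to 81.2 TPM in mutants, led by *Zp3*, *Oosp1*, *Gdf9* and *H1foo*. The 6 matched two-cell stage genes (1 tested) summed to 0.770 to 16.2 TPM in controls and 2.22 to 12.9 TPM in mutants. Of 8 cumulus and granulosa genes, *Amhr2* alone was tested, at 19.3 to 80.9 TPM (46.6 and 38.2 TPM in controls and mutants on average), and 6 stayed under 1 TPM everywhere, with *Foxl2*, *Has2* and *Ptx3* at 0 counts in all libraries. *Ovgp1* of the oviduct ranged from 0 to 30.1 TPM and was tested without a call, and *Lyz2* ranged from 0 to 121 TPM and received no adjusted p in DESeq2 and one of 0.936 in edgeR. The part of these markers in the members' differences was not tested.

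**Figure D5:**
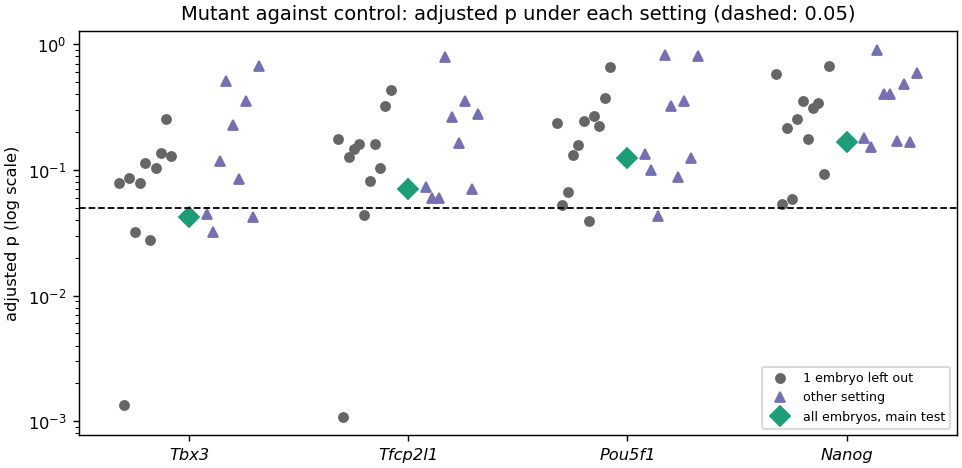
DESeq2, edgeR or limma adjusted p (vertical log axis) for *Tbx3*, *Tfcp2l1*, *Pou5f1* and *Nanog* between mutants and controls, with the diamond for all embryos under the main test, circles for fits without 1 embryo and triangles for other settings. *Tbx3* at 0.0425 sits just under the dashed line of 0.05, and leaving out control replicate 2 takes *Tbx3* and *Tfcp2l1* to about 0.001.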

How the data were processed

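Single-embryo RNA-seq was analysed for 11 embryos, grouped by the genotype label. Per the labels and the study's methods, libraries followed Smart-seq2 without molecular identifiers, so PCR copies were counted as separate reads. The authors mapped reads with STAR (version 2.6.0c) to GRCm38.p6 and quantified genes with RSEM. The deposited tables hold an expected count per gene, in which a read matching several genes is split between them, and TPM, which sums to the same total in every library. The posterior standard deviation of the count, deposited beside them as another score, was at most 2.82 reads for any member. The authors' own comparison table (DESeq2 version 1.22.2), with its log2 fold changes and p-values, was not used. Symbols were taken from the GENCODE annotation of the same build.

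Here, expected counts were rounded and tested for all genes with DESeq2 (version 1.42.0; R version 4.3.3), with terms for batch and group and no shrinkage of the fold changes, and p-values were adjusted by Benjamini-Hochberg over all genes. A gene was called where baseMean exceeded 10 and the adjusted p was under 0.05. DESeq2 was the main test because the study used it, and edgeR (version 4.0.16) is given beside calls. The members and lists were chosen with earlier results of these data known. Named were all members, *Prdm10*, called genes of every list, up to 4 of the highest TPM in a list, and the 3 genes most like the members. Some low or absent genes of the lists, and transcripts that overlap or copy a member, were named as well. The fits were tested on simulated data, where the share of false calls exceeded the nominal level in DESeq2 but not in edgeR. Within a group, all 25 pairs of libraries differed by more than sampling noise (chi-square per degree of freedom 16.9 to 97.4). The labels do not tie embryos to litters, so p-values measure the spread between these embryos. Alternatives were edgeR, limma (version 3.58.1) on log2(TPM + 1), TMM factors, other filters on low counts, batch terms, Cook's distance and length offsets, and each embryo left out. *Dux* was not matched by symbol. Promoters were RefSeq windows, cut at the annotated start.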

Additional observations from a re-analysis of the deposited data

Results flagged for a closer look

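The normalised count of *Tdgf1* in mutant replicate 5 was 2240.8, and its gap to the next mutant was larger than Dixon's 95% limit for a group of 5. In the other mutants the normalised count was 369, 722, 803 and 850, the last being the other mutant of batch 1. The group of 5 joined both batches, so differences between batches were not removed. Among the 18 groups of values examined in this way (9 genes in each of 2 groups), about 1 in 20 would be marked by chance. Without mutant replicate 5 the log2 fold change of *Tdgf1* between mutants and controls was 0.02, against 0.47 with all embryos.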

How the results depend on the processing

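No paired analysis was possible because the labels carry no replicate numbers or litters, and the numbers used here only name embryos in listing order. All-gene calls between mutants and controls (151) fell to 32 with edgeR, 22 with limma, 51 without a batch term, 78 in batch 1 alone and 48 in batch 2 alone, and ranged from 90 (without mutant replicate 2; 91 without mutant replicate 5) to 265 (without control replicate 2) with 1 embryo left out; lower genes made up 60.9% of the calls, 81.3% with edgeR, 95.5% with limma and 43.0% without control replicate 2. The count of called members (1) was 0 with edgeR, limma, no batch term, an effective-length offset or batch 2 alone, and 0 to 2 with 1 embryo left out; the 2 were *Tbx3* and *Tfcp2l1* without control replicate 2, and *Tbx3* and *Pou5f1* without mutant replicate 1. *Zfp42* reversed in batch 1 alone (-0.061) and *Tdgf1* in batch 2 alone (-0.16). Interaction calls (4) became 0 with edgeR or a baseMean above 100, and 0 to 22 with 1 embryo left out; over those fits the interaction of *Nanog* ran from -1.09 to 0.13, reversed without control replicate 1, and that of *Tbx3* from -0.40 to 0.29, reversed without control replicate 2 (0.29) or 6 (0.11) or mutant replicate 1 (0.066) or 4 (0.065). The batch call of *Nanog* was lost in 7 of 11 fits with 1 embryo left out (adjusted p up to 0.216), *Esrrb* gained one without control replicate 1 (0.00781) or 4 (0.0375) and *Sall4* without control replicate 4 (0.0394) or mutant replicate 3 (0.0486), taking the called members from 4 to between 3 and 6, while those of *Pou5f1*, *Tbx3* and *Nr5a2* kept their direction and threshold in every fit. The causes were not tested. At this depth *Sox2* lay below the count minimum.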

Other observations

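Several members have close relatives in the genome, and their levels were read beside those of the members. Of 18 such genes, 9 were tested and none was called between mutants and controls by DESeq2 (median log2 fold change -0.10) or by edgeR, which called 1.45% and 0.271% of all genes, so that 0 of 9 does not set them apart. *Sox15*, a SOX family gene, stood at 403 ± 81.1 TPM in 6 controls and 343 ± 99.6 TPM in 5 mutants (SD), at least 213.9 TPM in every embryo, whereas *Sox2* did not exceed 1.85 TPM in any. *Tfcp2* averaged 32.4 and 22.7 TPM in controls and mutants, and *Tfcp2l1* averaged 19.5 and 34.8 TPM. *Tfcp2* thus had the higher mean in controls and *Tfcp2l1* in mutants. *Yy1*, related to *Zfp42*, was at 23.2 and 22.3 TPM, and *Ubp1* at 12.2 and 14.1 TPM. *Esrrg*, *Nr5a1*, *Sall2* and *Sox1* stayed under 1 TPM in every embryo, and *Sall3* had 0 counts throughout. On the log2(CPM + 1) scale, which does not correct for length, the order of the members began with *Sall4*, *Nr5a2* and *Tbx3*, and *Pou5f1* moved from the first place to the fifth.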
